A study of Homo sapiens with 12 samples.

Results

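The nuclear-encoded subunits of the respiratory chain and the ATP synthase were followed in 22Rv1 cells after siRNA treatment. They were taken as the protein-coding genes whose symbols, looked up from the Ensembl identifiers, begin with NDUFA, NDUFB, NDUFC, NDUFS or NDUFV and a number, with UQCR or with ATP5, together with SDHA to SDHD and the COX4 to COX8 genes. This gave 89 genes of the 61860 listed in both count tables. A further 180 symbols of the same pattern, among them many pseudogenes, are not protein-coding and were left out. By symbol 37 members belong to complex I, 4 to complex II, 9 to complex III, 19 to complex IV and 20 to complex V. NDUFA4 and NDUFA4L2 were counted with complex IV, to which NDUFA4 is now assigned despite its name. 22Rv1 is an established line of human prostate carcinoma cells, grown first as a xenograft. The 12 RNA-seq libraries form 4 groups of 3: cells given siRNA against ETS1, the controls of that experiment, cells given siRNA against ZNF783, a zinc finger protein gene, and the controls of that second experiment. The study concerns phosphorylated RB, the ETS-family transcription factor ETS1 and sensitivity to CDK4/6 inhibitors. All groups share the same cell line and growth medium, and the labels describe no drug treatment, no siRNA sequence and no time of harvest. The labels state neither what the control cells received nor whether the replicates came from cultures of their own. The p-values therefore speak only of the spread among these libraries, which may be technical. Where values of a gene are listed by library they run in the order of replicates 1 to 3. Gene coordinates are those of GRCh38.

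The respiratory chain of the inner mitochondrial membrane passes electrons from NADH, through complex I, and from succinate, through complex II, to ubiquinone, then through complex III and cytochrome c to complex IV, which reduces oxygen. Complexes I, III and IV pump protons, and complex V, the ATP synthase, uses the gradient to make ATP. A few core subunits are encoded by mitochondrial DNA and all others by nuclear genes, many of whose promoters carry sites for NRF1, for the ETS-family factor GABP, for YY1 and for SP1. Several complex IV subunits exist as ubiquitous and tissue-restricted paralogs.

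Total counts ran from 13518177 to 48996691 per library. ETS1 itself had between 0 and 3 counts in each of the 12 libraries, at most the floor of 3 counts, so the counts cannot check the ETS1 knockdown. ZNF783 averaged 28.0 ± 0.629 CPM (counts scaled to the same effective library size by trimmed mean of M values, TMM) in ZNF783 siRNA libraries and 34.8 ± 0.910 CPM in their controls (SD, n = 3 each), a log2 fold change of -0.31 ± 0.0553 (SE, adjusted p = 2.46e-05, edgeR). ZNF783 was also lower with ETS1 siRNA, at 16.6 ± 3.53 CPM against 21.6 ± 0.678 CPM in ETS1 controls (SD, n = 3 each). All 3 ETS1 siRNA libraries lay below all 3 ETS1 controls, with replicates 2 and 3 at 18.7 and 18.5 CPM. Whether the fall of ZNF783 is specific to ZNF783 siRNA was not tested. ETS1 siRNA replicate 1 stood apart from its group: a chi-square per degree of freedom comparing its counts with replicates 2 and 3 was 40.3 and 38.9, against 1.36 to 2.93 for all other pairs of replicates. The counts and medians over all members are therefore given with all 6 ETS1 libraries and with the 5 left without it. Results by complex and many values of single genes are given for the 5 alone, as stated. The 9 luminal prostate markers examined lay between 9.21 and 1351 CPM in every library. Of 13 markers of other cell types, CD3E had no counts, 8 others stayed below 1 CPM, and COL1A1, DCN, CHGA and SYP reached 28.0, 1.5, 3.4 and 73.2 CPM. In bulk RNA a lower level may be fewer cells expressing a gene or less RNA per cell, and the values cannot tell these apart.

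The promoters of the members, called or not, were inspected for the ETS motif because ETS1 is a member of that family of factors. Of the 89 members, 70 had an entry in the RefSeq promoter table (GRCh38.p14, 250 bases before to 50 after the start). The ETS core CCGGAAG, searched on both strands, was present in 20 of these 70 promoters (28.6%), against 14.2% of 15842 protein-coding promoters of the same length. The NRF1 motif GCGCATGCG was present in 14.3% of member promoters and 2.76% of all, and the YY1 motif AAGATGGC in 15.7% and 3.91%. The CCAAT box, searched as CCAAT, was present in 35.7% of member promoters and 36.4% of all, and the SP1 motif GGGCGG in 61.4% and 58.5%. Matches of the ETS core and the SP1 motif overlapped in 1 member promoter, and no other pair of motifs overlapped. The 4 promoters printed next are those of the called members with the smallest p that hold the ETS core, 2 from each siRNA comparison and each gene once, with every match to the core in capitals on either strand.
COX5B, chr2:97645812-97646111, plus strand: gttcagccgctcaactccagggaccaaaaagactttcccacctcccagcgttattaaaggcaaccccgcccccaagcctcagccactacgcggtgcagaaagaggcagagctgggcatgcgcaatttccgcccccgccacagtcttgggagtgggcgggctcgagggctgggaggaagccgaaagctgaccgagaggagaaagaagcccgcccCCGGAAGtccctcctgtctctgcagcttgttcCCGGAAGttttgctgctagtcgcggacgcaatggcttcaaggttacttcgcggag
COX4I1, chr16:85799445-85799744, plus strand: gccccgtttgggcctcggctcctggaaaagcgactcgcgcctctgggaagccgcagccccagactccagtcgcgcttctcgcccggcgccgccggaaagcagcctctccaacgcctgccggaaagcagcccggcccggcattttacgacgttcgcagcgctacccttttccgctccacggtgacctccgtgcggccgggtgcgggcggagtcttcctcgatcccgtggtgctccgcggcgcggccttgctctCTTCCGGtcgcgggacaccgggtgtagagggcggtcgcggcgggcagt
NDUFS3, chr11:47578824-47579123, plus strand: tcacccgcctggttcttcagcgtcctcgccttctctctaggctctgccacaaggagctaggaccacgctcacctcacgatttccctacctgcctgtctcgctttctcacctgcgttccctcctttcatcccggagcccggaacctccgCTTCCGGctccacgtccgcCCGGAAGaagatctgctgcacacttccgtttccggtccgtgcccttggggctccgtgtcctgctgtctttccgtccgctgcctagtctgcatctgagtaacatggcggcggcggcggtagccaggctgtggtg
UQCRQ, chr5:132866392-132866691, plus strand: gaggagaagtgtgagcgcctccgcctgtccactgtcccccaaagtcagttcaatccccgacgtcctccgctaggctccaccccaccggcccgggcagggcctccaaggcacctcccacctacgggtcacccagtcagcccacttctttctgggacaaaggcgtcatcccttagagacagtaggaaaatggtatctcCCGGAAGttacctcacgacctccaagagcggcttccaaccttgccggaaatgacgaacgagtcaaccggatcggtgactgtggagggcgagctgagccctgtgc

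COX5B has 2 copies of the core on the gene's own strand, 37 and 5 bases before the start. NDUFS3 has 1 on each strand, 102 and 83 bases before the start, UQCRQ has 1 on its own strand 54 bases before it, and COX4I1 has 1 on the opposite strand, beginning 3 bases into the transcript. A match of letters is a description of the window and not evidence of a binding site.

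Levels were compared between members per kilobase of annotated exon. In ETS1 controls the members had a median of 31.0 CPM per kb and spanned 0 to 1073. ATP5F1B, the catalytic beta subunit of the ATP synthase, ranked highest, at 816 ± 212 CPM per kb in ETS1 siRNA libraries and 1073 ± 5.03 in their controls, and at 833 ± 11.1 in ZNF783 siRNA libraries and 878 ± 4.51 in their controls (SD, n = 3 each). NDUFS5, an accessory subunit of complex I, followed at 247 ± 20.2 CPM per kb in ETS1 controls. COX8A, the ubiquitous form of a small complex IV subunit, had 223 ± 2.89 there, UQCRH, the hinge protein of complex III, 167 ± 11.3, and COX6B1 of complex IV 144 ± 13.9. In ZNF783 controls the same 5 genes ranked highest, with COX8A above NDUFS5 (268 ± 10.3 against 219 ± 24.2 CPM per kb). UQCRH and COX6B1 differed by less than the sum of their SDs in both control groups. By complex the median level in ETS1 controls was 20.4 CPM per kb for complex I, 26.6 for complex II, 46.6 for complex III, 44.8 for complex IV and 36.6 for complex V.

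Some members had few counts in every library. Reads that overlap exons of 2 genes, and reads that map to several places, are not counted under the options in the file headers. Of the 89 members 49 share some exon sequence with another annotated gene, 36 of them with a gene on the opposite strand, and 49 have at least 1 pseudogene named after them (188 in all). NDUFA6, an accessory complex I subunit, had 3 counts over all 12 libraries, and NDUFA3 had 104. The core subunit NDUFV2 had 515 counts, against 66099 for NDUFV1, its partner in NADH oxidation. Whether reads shared with other loci lowered these counts was not tested. The read-through genes NDUFC2-KCTD14, with 0 counts, and ATP5MF-PTCD1, with 178, share 100% and 93.8% of their exon bases with their neighbours. The 7 members below the expression filter in both experiments were NDUFA6, NDUFC2-KCTD14, COX4I2, COX6A2, COX7B2, COX8C and ATP5MGL. NDUFA3, COX6B2 and COX7A1 were also below it in the ZNF783 experiment, which left 82 members tested with ETS1 siRNA and 79 with ZNF783 siRNA.

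Most respiratory chain subunits were lower in the ETS1 siRNA libraries than in their controls. Together the 89 members took 8348, 11734 and 11913 CPM in ETS1 siRNA replicates 1 to 3, against 12736, 12973 and 13219 CPM in ETS1 control replicates 1 to 3. Every siRNA library was below every control library, and replicate 1 was lowest by far. In 55 of 82 tested members all 3 siRNA libraries lay below all 3 controls, which is 67.1%, against 17.8% of the 19542 genes tested. In 2 members they lay above all 3 controls, and the share of all genes that did so is not given here. The median log2 fold change was -0.30 over the members and 0.01 over all genes tested, and 75 of 82 members had a negative one. No member was called at an adjusted p below 0.05 in either direction by edgeR with all 6 libraries, where 0.0461% of all genes were called. At an unadjusted p below 0.05 there were 16 members (19.5%), against 18.1% of all genes tested. DESeq2 called 1 member lower and limma-voom none.

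Without ETS1 siRNA replicate 1, 42 members fell (51.2% of 82), where 13.0% of all 20237 genes tested were called lower, and 1 rose (1.22%), where 9.96% of all genes were called higher. The changes were small, with a median log2 fold change of -0.15, or 90.0% of the control level, against 0.00 over all genes tested. The median deviation of the tested members from the mean of the controls was -0.63 in siRNA replicate 1, -0.15 in replicate 2 and -0.11 in replicate 3 on a log2(CPM + 0.5) scale, and -0.03 to 0.04 in the controls. All 3 siRNA libraries thus deviated in the same direction, replicate 1 several times as far. The spread was widest in the group that holds that library: over members of at least 10 CPM the median coefficient of variation was 20.4% in ETS1 siRNA libraries, 3.43% in their controls, 3.67% in ZNF783 siRNA libraries and 3.98% in the controls of those.

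**Figure D1:**
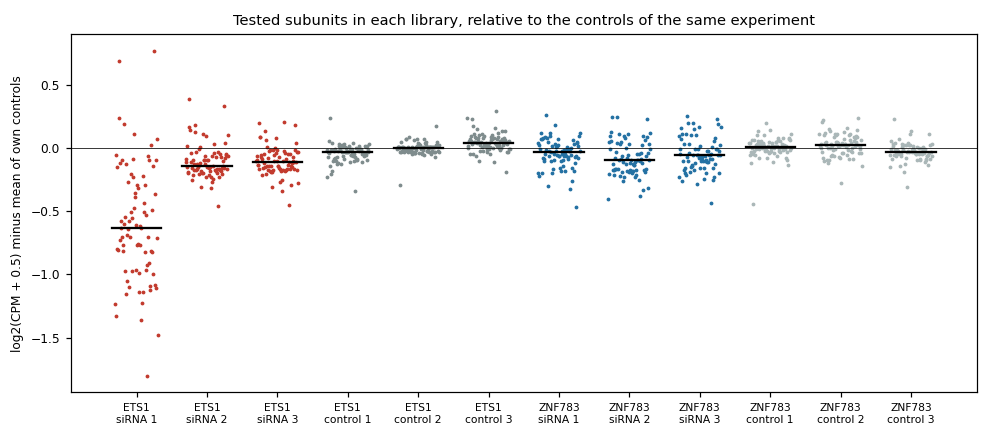
Each point is 1 tested subunit in 1 library, as log2(CPM + 0.5) minus the mean of the 3 controls of the same experiment, and black bars are medians over subunits. ETS1 siRNA replicate 1 has a median of -0.63 and the other 2 ETS1 siRNA libraries -0.15 and -0.11. The ZNF783 siRNA libraries lie between -0.09 and -0.03 and their controls between -0.03 and 0.03. These ranges meet, with ZNF783 siRNA replicate 1 at -0.032 and ZNF783 control replicate 3 at -0.033.

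**Figure D2:**
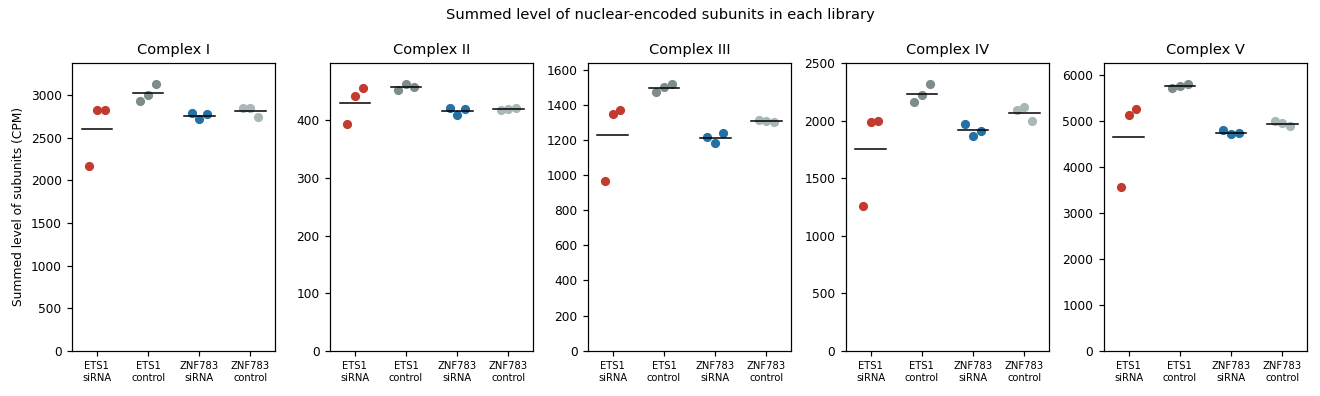
Summed CPM of the subunits of each complex in each library (points, replicates 1 to 3 from left to right) with group means (bars), on axes that start at 0. In complexes I, III, IV and V every ETS1 siRNA library lies below every ETS1 control library.

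In complex I, 15 of 35 tested members fell and 1 rose without replicate 1, with a median log2 fold change of -0.15. The core subunits, which bind the redox centres or form the ubiquinone site, accounted for 5 of these from 7 tested, and the accessory subunits for 10 from 28. NDUFV1 (ENSG00000167792, chromosome 11, 67605653 to 67612554, plus strand), which binds the flavin that accepts electrons from NADH, had 119, 203 and 206 CPM in ETS1 siRNA libraries, against 234, 227 and 239 CPM in ETS1 controls. The groups did not overlap, and its log2 fold changes were -0.40 ± 0.194 (SE, adjusted p = 0.314) with 6 libraries and -0.20 ± 0.0299 (SE, adjusted p = 6.1e-07) with 5. NDUFS1, the largest core subunit and a carrier of iron-sulphur clusters, had 289.9, 315 and 316 CPM in ETS1 siRNA libraries, against 357, 349 and 345 CPM in ETS1 controls. Here siRNA replicate 1 was nearer the other siRNA libraries, and the gene's log2 fold changes were -0.19 ± 0.0549 (SE, adjusted p = 0.183) and, without it, -0.16 ± 0.0285 (SE, adjusted p = 2.05e-05).

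NDUFS3, another core subunit, had 34.8, 65.3 and 66.2 CPM in ETS1 siRNA libraries, against 74.5, 73.6 and 78.0 CPM in ETS1 controls, with a log2 fold change of -0.21 ± 0.0364 (SE, adjusted p = 1.09e-05) in 5 libraries. NDUFS7, which carries the last iron-sulphur cluster before ubiquinone, had 30.5, 30.9 and 28.4 CPM in ETS1 siRNA libraries, against 35.8, 35.1 and 34.7 CPM in ETS1 controls. Its 3 siRNA libraries were alike and all below the controls, and its log2 fold change was -0.23 ± 0.0644 (SE, adjusted p = 0.169) with 6 libraries, and -0.25 ± 0.0473 (SE, adjusted p = 4.54e-05) with 5. The accessory subunit NDUFS6 changed by -0.24 ± 0.0481 (SE, adjusted p = 0.000657) in 5 libraries. The 1 member that rose was NDUFB5 (ENSG00000136521, chromosome 3, 179604690 to 179627647, plus strand), an accessory subunit of the membrane arm, with 45.6, 45.3 and 43.9 CPM in ETS1 siRNA libraries, against 39.5, 41.9 and 38.2 CPM in ETS1 controls. All its siRNA libraries were above all controls, with a log2 fold change of 0.16 ± 0.0432 (SE, adjusted p = 0.00357) in 5 libraries. The correction for GC content and length described later ended this call (adjusted p = 0.0838).

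Complex II, whose 4 subunits also form an enzyme of the tricarboxylic acid cycle, moved least, with a median log2 fold change of -0.07 without replicate 1. SDHC, a membrane anchor, was the 1 member that fell, with 146, 171 and 181 CPM in ETS1 siRNA libraries, against 186, 188 and 185 CPM in ETS1 controls, with a log2 fold change of -0.09 ± 0.0307 (SE, adjusted p = 0.0212) in 5 libraries. SDHA, the flavoprotein, had a log2 fold change of -0.11, SDHB, the iron-sulphur subunit, of -0.04 and SDHD, the other anchor, of 0.08 (adjusted p = 0.127, 0.384 and 0.0696). SDHA has 4 pseudogenes named after it, so its counts are uncertain, though shared sequence was not measured. The same holds for other members with named pseudogenes, among them COX6C with 17, NDUFA5 with 12 and COX5B with 7.

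In complex III, 8 of 9 members fell without replicate 1, with a median of -0.17. UQCRFS1, the Rieske iron-sulphur protein, had 95.5, 145 and 145 CPM in ETS1 siRNA libraries, against 160, 163 and 163 CPM in ETS1 controls, with a log2 fold change of -0.17 ± 0.0304 (SE, adjusted p = 2.5e-05) in 5 libraries. UQCRC1, a core protein, had 211, 323 and 326 CPM in ETS1 siRNA libraries, against 360.4, 349 and 369 CPM in ETS1 controls, and changed by -0.15 ± 0.0290 (SE, adjusted p = 3.44e-05). UQCRB, a subunit near the ubiquinone site, had 161, 177 and 179 CPM in ETS1 siRNA libraries, against 193, 203 and 196 CPM in ETS1 controls, and changed by -0.15 ± 0.0302 (SE, adjusted p = 8.3e-05). In each of these 3 genes the siRNA libraries were all below the controls. UQCRQ, a small accessory subunit, had a log2 fold change of -0.35 with 6 libraries and -0.19 ± 0.0395 (SE, adjusted p = 0.000301) with 5. The member not called was UQCR11, at -0.07 (adjusted p = 0.307).

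Complex IV held the members of the smallest p. COX5A (ENSG00000178741, chromosome 15, 74919791 to 74938168, minus strand), a matrix-side subunit, had 89.3, 111 and 109 CPM in ETS1 siRNA libraries, against 138, 139 and 139 CPM in ETS1 controls. The siRNA libraries were all below the controls, and the gene had log2 fold changes of -0.42 ± 0.0873 (SE, adjusted p = 0.119) with 6 libraries and -0.34 ± 0.0317 (SE, adjusted p = 9.5e-13) with 5. COX5B had 56.3, 121 and 122 CPM in ETS1 siRNA libraries, against 139, 144 and 153 CPM in ETS1 controls. It changed by -0.27 ± 0.0337 (SE, adjusted p = 1.1e-08) in 5 libraries. COX4I1, the ubiquitous form of the regulatory subunit COX4, had 263, 344 and 356 CPM in ETS1 siRNA libraries, against 395, 392 and 423 CPM in ETS1 controls, and changed by -0.21 ± 0.0304 (SE, adjusted p = 2.81e-07). NDUFA4L2 (ENSG00000185633, chromosome 12, 57234903 to 57240715, minus strand), a paralog of NDUFA4 known to be induced under low oxygen, had 49.8, 37.8 and 38.0 CPM in ETS1 siRNA libraries, against 51.1, 50.9 and 54.0 CPM in ETS1 controls. For this gene replicate 1 was the siRNA library nearest to the controls, and the gene's log2 fold changes were -0.32 ± 0.114 (SE, adjusted p = 0.238) with 6 libraries and -0.47 ± 0.0418 (SE, adjusted p = 2.22e-13) with 5. In all, 7 of 15 tested complex IV members fell without replicate 1 and none rose.

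In complex V, 11 of 19 tested members fell without replicate 1 and none rose, with a median of -0.13. ATP5F1B (ENSG00000110955, chromosome 12, 56638175 to 56646068, minus strand) had 1328, 2132 and 2221 CPM in ETS1 siRNA libraries, against 2480, 2503 and 2495 CPM in ETS1 controls. Replicate 1 was far below the other siRNA libraries, and the gene had log2 fold changes of -0.40 ± 0.177 (SE, adjusted p = 0.292) with 6 libraries and -0.20 ± 0.0263 (SE, adjusted p = 1.42e-08) with 5. ATP5F1A, the alpha subunit, changed by -0.15 ± 0.0269 (SE, adjusted p = 2.7e-05) in 5 libraries and ATP5MF, a subunit of the membrane part, by -0.17 ± 0.0315 (SE, adjusted p = 2.25e-05). ATP5MC2, one of the genes for the c ring, had a log2 fold change of -0.24 ± 0.105 (SE, adjusted p = 0.28) with 6 libraries and -0.14 ± 0.0331 (SE, adjusted p = 0.00121) with 5. The read-through gene ATP5MF-PTCD1, at or below 1.078 CPM in every library, had a log2 fold change of 0.79 ± 0.328 (SE, adjusted p = 0.268) with 6 libraries and rests on few counts.

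**Figure D3:**
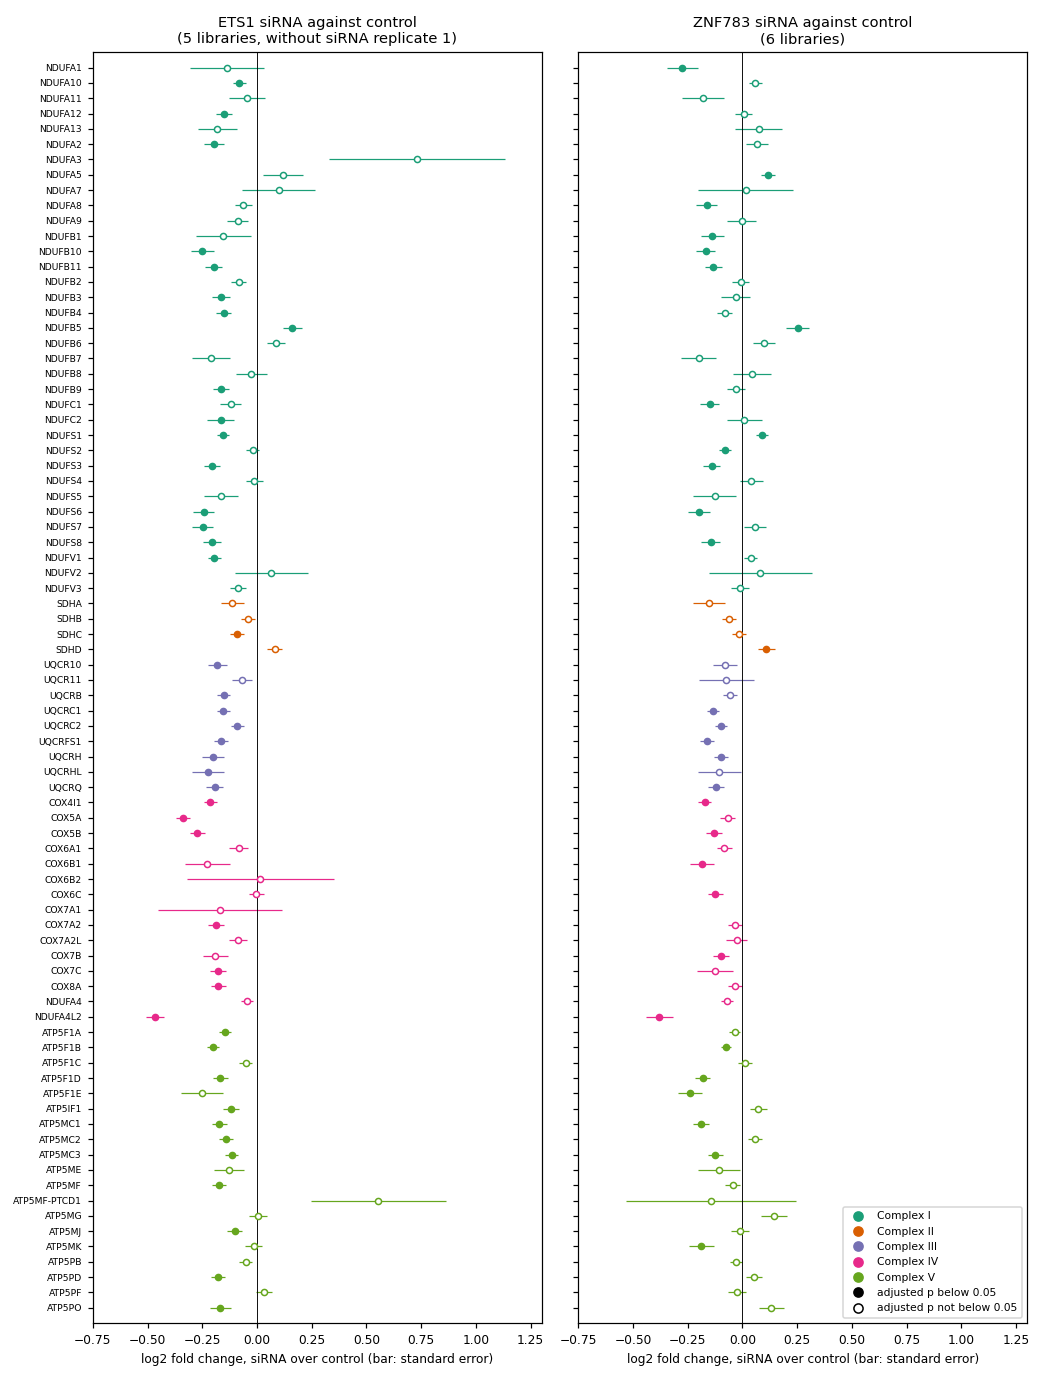
Log2 fold change of every tested subunit (siRNA over control, bars are standard errors) for ETS1 siRNA without replicate 1 and for ZNF783 siRNA, coloured by complex, with filled points for an adjusted p below 0.05. With ETS1 siRNA 42 members are called lower and NDUFB5 higher, and with ZNF783 siRNA 27 are called lower and 4 higher.

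With ZNF783 siRNA, respiratory chain subunits were also lower more often than higher, by smaller amounts. Of 79 tested members 27 fell (34.2%), where 13.8% of all 17630 genes tested were called lower, and 4 rose (5.06%), where 11.3% of all genes were called higher. The median log2 fold change was -0.07, or 95.3% of the control level, against 0.00 over all genes tested. The 89 members together took 11204, 10899 and 11078 CPM in ZNF783 siRNA replicates 1 to 3, against 11675, 11648 and 11370 CPM in ZNF783 control replicates 1 to 3. The siRNA sums were all below the control sums. In 26 of 79 members (32.9%) all siRNA libraries lay below all controls, against 19.8% of all genes tested. In 7 members they lay above, a count with no share of all genes beside it here. These counts depended on single libraries: without ZNF783 siRNA replicate 2 or without ZNF783 control replicate 1 the number called lower was 16, and 10 of the 27 were called lower whichever library was left out. The shares of all genes called in these reduced fits are not given here.

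COX4I1 had 353, 355 and 329 CPM in ZNF783 siRNA libraries, against 391, 400 and 382 CPM in ZNF783 controls, with a log2 fold change of -0.17 ± 0.0281 (SE, adjusted p = 6.4e-06). NDUFA4L2 changed most of all members, with 23.2, 22.4 and 21.5 CPM in ZNF783 siRNA libraries, against 29.4, 30.1 and 28.3 CPM in ZNF783 controls, with a log2 fold change of -0.38 ± 0.0614 (SE, adjusted p = 5.5e-06). In both genes the groups did not overlap. COX6C of complex IV had 124, 112 and 120.2 CPM in ZNF783 siRNA libraries, against 131, 132 and 126 CPM in ZNF783 controls, and changed by -0.12 ± 0.0352 (SE, adjusted p = 0.00706). In complex IV 6 of 13 tested members fell and none rose, and all 13 had a negative log2 fold change.

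In complex III 5 of 9 members fell and none rose. UQCRFS1 had 135, 134 and 143 CPM in ZNF783 siRNA libraries, against 156, 149 and 155 CPM in ZNF783 controls, and changed by -0.16 ± 0.0323 (SE, adjusted p = 0.000122). UQCRC1 had 308, 305 and 327 CPM in ZNF783 siRNA libraries, against 338, 353 and 340.2 CPM in ZNF783 controls, and changed by -0.14 ± 0.0280 (SE, adjusted p = 0.000209), and UQCRC2, the other core protein, changed by -0.10 ± 0.0272 (SE, adjusted p = 0.00474). In the ATP synthase 6 of 19 tested members of complex V fell and none rose. ATP5F1D, the delta subunit of the central stalk, had 135, 149 and 146 CPM in ZNF783 siRNA libraries, against 160, 168 and 158 CPM in ZNF783 controls, and changed by -0.18 ± 0.0341 (SE, adjusted p = 8.41e-05). Of the genes that encode the c ring, ATP5MC1 changed by -0.19 ± 0.0381 (SE, adjusted p = 0.000162) and ATP5MC3 by -0.12 ± 0.0328 (SE, adjusted p = 0.00381), while ATP5MC2 had 0.06 ± 0.0331 (SE, adjusted p = 0.22).

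Complex I split, with 10 of 34 tested members lower and 3 higher and a median of -0.01. NDUFB10, an accessory subunit of the membrane arm, had 99.4, 92.0 and 93.0 CPM in ZNF783 siRNA libraries, against 103, 116 and 102 CPM in ZNF783 controls, and changed by -0.17 ± 0.0422 (SE, adjusted p = 0.00371), and NDUFS6 changed by -0.20 ± 0.0490 (SE, adjusted p = 0.00219). NDUFB5 rose, with 41.1, 40.5 and 40.8 CPM in ZNF783 siRNA libraries, against 35.4, 31.4 and 35.8 CPM in ZNF783 controls, with a log2 fold change of 0.25 ± 0.0530 (SE, adjusted p = 0.000284). All siRNA libraries were above all controls. NDUFA5, an accessory subunit of the peripheral arm, had 185, 185 and 183 CPM in ZNF783 siRNA libraries, against 178, 160.3 and 172 CPM in ZNF783 controls, and rose by 0.12 ± 0.0316 (SE, adjusted p = 0.00409). NDUFS1 had 309, 294 and 307 CPM in ZNF783 siRNA libraries, against 290, 275 and 291 CPM in ZNF783 controls, and rose by 0.09 ± 0.0282 (SE, adjusted p = 0.0155). In complex II SDHD had 92.5, 94.7 and 98.4 CPM in ZNF783 siRNA libraries, against 91.0, 83.6 and 89.3 CPM in ZNF783 controls, and rose by 0.11 ± 0.0376 (SE, adjusted p = 0.0274). SDHA (-0.15, adjusted p = 0.135) and SDHB (-0.06, adjusted p = 0.154) were not called.

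**Figure D4:**
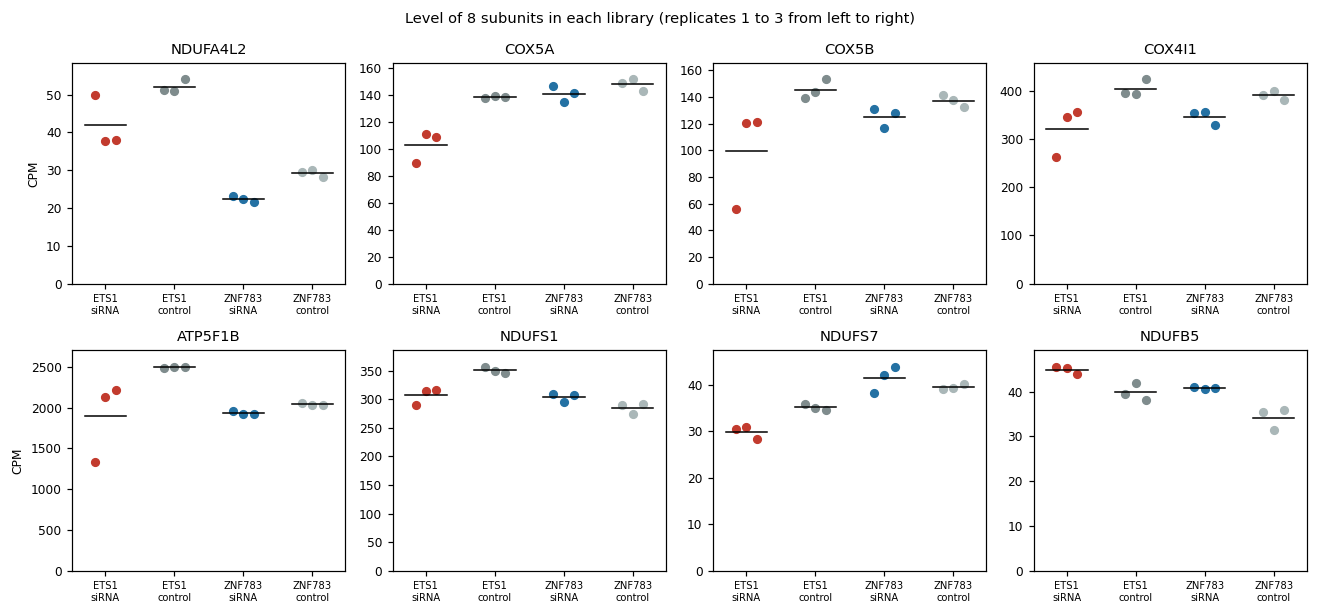
CPM of 8 subunits in each library (points, replicates 1 to 3 from left to right) with group means (bars), on axes that start at 0. NDUFA4L2, COX4I1 and ATP5F1B are lower with both siRNAs, NDUFB5 is higher with both, and NDUFS1 lies below its controls with ETS1 siRNA and above them with ZNF783 siRNA.

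The 2 siRNA experiments have separate controls, so their calls can be set side by side. Of 79 members tested in both, 17 were called lower with ETS1 siRNA (without replicate 1) and with ZNF783 siRNA, where 951 of the 17548 genes tested in both (5.42%) were called lower with both. These are 40.5% of the 42 members lower with ETS1 siRNA and 63.0% of the 27 lower with ZNF783 siRNA. By the smallest larger p they begin with NDUFA4L2, COX4I1, ATP5F1D, UQCRFS1 and ATP5MC1. Of these 5 ATP5F1D lost both calls after the correction for GC content and length, at -0.05 with ETS1 siRNA (adjusted p = 0.195) and -0.04 with ZNF783 siRNA (adjusted p = 0.386). NDUFB5 was the 1 member called higher with both, where 3.61% of all genes were, and NDUFS1 the 1 member called lower with ETS1 siRNA and higher with ZNF783 siRNA. A further 24 members were called lower with ETS1 siRNA and not called with ZNF783 siRNA, 10 were called lower with ZNF783 siRNA and not called with ETS1 siRNA, and NDUFA5 and SDHD were called higher with ZNF783 siRNA and not called with ETS1 siRNA. Such splits do not show that the responses differed. The other 24 members were called in neither. Across the 79 members the log2 fold changes had a Pearson correlation of 0.39 and a Spearman correlation of 0.41, given as a description with no test, since all members share the same libraries within each experiment.

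**Figure D5:**
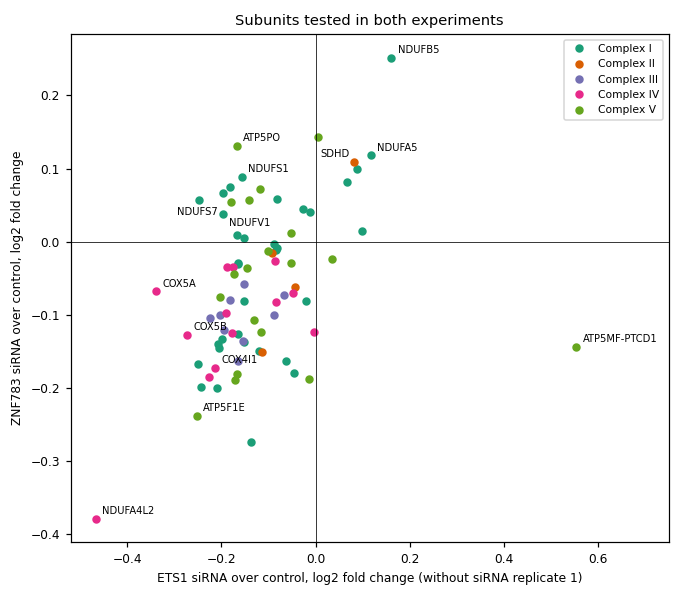
Log2 fold change of the 79 subunits tested in both experiments, ETS1 siRNA without replicate 1 on the horizontal axis and ZNF783 siRNA on the vertical axis, coloured by complex. The log2 fold change is negative with both siRNAs in 55 members, and NDUFA4L2 is the lowest with both.

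The difference between the responses was tested in 1 fit of all 12 libraries. NDUFS1 was the 1 member called, where 0.577% of 19594 genes tested were called lower: its ETS1 siRNA effect minus its ZNF783 siRNA effect was -0.27 ± 0.0610 (SE, adjusted p = 0.0486) on the log2 scale. This call was lost when any ETS1 control or any ZNF783 library was left out. No member was called higher, where 1.11% of all genes tested were. Without ETS1 siRNA replicate 1 the ETS1 siRNA effect was the lower one in 14 of 82 members (17.1%), where 7.41% of all 20018 genes were called lower. It was the higher one in none, where 6.25% of all genes were called higher. The lowest differences were those of NDUFS7, -0.31 ± 0.0712 (SE, adjusted p = 0.00164), ATP5PO, the stalk subunit OSCP, -0.30 ± 0.0796 (SE, adjusted p = 0.00817), and COX5A, -0.27 ± 0.0449 (SE, adjusted p = 1.17e-05). The called differences nearest 0 were those of NDUFA10, ATP5F1B and ATP5F1A (-0.14, -0.13 and -0.11). NDUFS1 had -0.25 ± 0.0389 (SE, adjusted p = 4.69e-06) in that fit. NDUFA4L2, the member that fell most with both siRNAs, had a difference of -0.09 ± 0.0716 (SE, adjusted p = 0.488).

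Among paralogs, the ubiquitous genes carried nearly all counts. COX4I2, known for lung and for low oxygen, had 0 counts in all libraries, and COX6A2, the heart and muscle form, had 1 count, against 28397 for COX6A1 over all 12 libraries. COX7B2 had 0 counts and COX8C 1, against 37319 for COX7B and 34012 for COX8A. At the depth of these libraries 3 counts correspond to 0.0612 to 0.222 CPM, so lower levels were not detectable. COX6B2, known from testis, stayed at or below 0.579 CPM and COX7A1, the muscle form, at or below 0.893 CPM in every library. COX6B1 had a log2 fold change of -0.23 ± 0.102 (SE, adjusted p = 0.256) with ETS1 siRNA in 5 libraries and -0.19 ± 0.0563 (SE, adjusted p = 0.0342) with ZNF783 siRNA. COX7A2 had -0.19 ± 0.0361 (SE, adjusted p = 0.000299) and -0.04 ± 0.0312 (SE, adjusted p = 0.459) in the same order, and COX7A2L, which links complexes III and IV, -0.09 ± 0.0392 (SE, adjusted p = 0.104) and -0.03 ± 0.0477 (SE, adjusted p = 0.739). NDUFA4 had log2 fold changes of -0.05 ± 0.0281 (SE, adjusted p = 0.257) with ETS1 siRNA in 5 libraries and -0.07 ± 0.0289 (SE, adjusted p = 0.0716) with ZNF783 siRNA. UQCRHL, a near copy of UQCRH, had 3226 counts over all libraries against 60274 for UQCRH, and reads of the pair may be split between them or left uncounted.

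GC content moved with the response over all genes. With ETS1 siRNA, without replicate 1, the median log2 fold change went down across 5 equal classes of GC content, at 0.08, 0.03, -0.01, -0.06 and -0.11 in ascending order, and with ZNF783 siRNA it was 0.08, 0.05, 0.01, -0.04 and -0.12. For ETS1 siRNA with all 6 libraries it was 0.165, 0.080, 0.010, -0.082 and -0.181. The members did not stand out in GC content, with a median of 47.9% against 48.2% for all genes tested in the first of these fits, but their exon sequence was shorter, at a median of 2634 bases against 4010. After a correction for GC content and length, 43 members were called lower with ETS1 siRNA without replicate 1, where 11.3% of all genes tested were, and 36 of the earlier 42 were among them. With ZNF783 siRNA the corrected fit called 25 lower, where 10.3% of all genes tested were, including 19 of the 27, and 3 higher, where 9.20% were. Some calls ended as the fold shrank. With ZNF783 siRNA the corrected log2 fold change of UQCRC1 was -0.03, that of ATP5F1D -0.04 and that of NDUFS3 -0.07 (adjusted p = 0.506, 0.386 and 0.166), and with ETS1 siRNA that of ATP5F1D was -0.05 (adjusted p = 0.195). Others ended at a like or larger fold: with ETS1 siRNA ATP5MC2 had -0.14 before and -0.14 after the correction, and COX7C -0.18 before and -0.26 after (adjusted p = 0.0741 and 0.0615 after). Among named members that stayed called, the ETS1 siRNA values of NDUFV1, NDUFS7, UQCRC1, ATP5MF and NDUFB10 shrank to -0.10, -0.14, -0.06, -0.09 and -0.16, and that of UQCRB grew to -0.24. The ZNF783 siRNA values of NDUFA4L2 and NDUFB10 shrank to -0.23 and -0.10, and that of ATP5MC3 grew to -0.19. With all 6 ETS1 libraries, the corrected log2 fold changes of ATP5MF and NDUFB10 were 0.01 and 0.01, not called and above 0. Those of NDUFA4L2 and NDUFS7 were -0.04 and -0.06 in that fit (adjusted p = 0.939 and 0.769). Its median over the 82 tested members was -0.25, with 72 members negative and 10 positive and none called.

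Members called higher depended on the correction. With ZNF783 siRNA the corrected log2 fold changes of NDUFS1, NDUFA5 and SDHD were 0.04, 0.03 and 0.05 and were no longer called (adjusted p = 0.27, 0.429 and 0.333), while NDUFB5 stayed called at 0.18 ± 0.0502 (SE, adjusted p = 0.00743). NDUFV1 and NDUFS7 were called higher in the corrected fit only, at 0.14 ± 0.0251 (SE, adjusted p = 3.32e-05) and 0.17 ± 0.0509 (SE, adjusted p = 0.0115). Members lower with both siRNAs in the corrected and in the uncorrected fits numbered 11, and they include NDUFA4L2, COX4I1, COX5B, UQCRFS1, ATP5F1B and ATP5MC1. The share of all genes that meet the same condition is not given here, so this count has no background beside it.

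The other genes of the pathway were read from lists that the rule does not cover, and the values after their names are log2 fold changes. Over all genes tested 13.0% were called lower and 9.96% higher with ETS1 siRNA without replicate 1, and 13.8% lower and 11.3% higher with ZNF783 siRNA, and several of the lists lie near these shares. With ETS1 siRNA and all 6 libraries none of the genes in the lists given here was called. Without replicate 1, 6 of 19 complex I assembly factors were lower and none higher (median -0.03), among them FOXRED1, -0.17 ± 0.0303 (SE, adjusted p = 1.79e-05), and ECSIT, -0.17 ± 0.0362 (SE, adjusted p = 0.000169). The GC and length correction ended the call of ECSIT, at -0.07 (adjusted p = 0.131). Of 28 complex IV assembly factors 7 were lower and 2 higher (median -0.06), led by FASTK, -0.21 ± 0.0328 (SE, adjusted p = 8.93e-07) and -0.11 (adjusted p = 0.00138) after the correction, and COX14, -0.30 ± 0.0510 (SE, adjusted p = 4.46e-06). Of 14 assembly factors of complexes II, III and V, 2 were lower and none higher. With ZNF783 siRNA the counts were 2 lower and 0 higher of 19 for complex I, 3 lower and 2 higher of 28 for complex IV and 2 lower and 1 higher of 14 for the others. HIGD2A, a complex IV assembly factor, rose by 0.19 ± 0.0475 (SE, adjusted p = 0.00165), and ATPAF1, which assembles the catalytic head of the ATP synthase, by 0.15 ± 0.0301 (SE, adjusted p = 0.000225). BCS1L, which inserts the Rieske protein into complex III, fell by 0.16 ± 0.0446 (SE, adjusted p = 0.00561) on the log2 scale, a call that ended after the correction, at -0.11 (adjusted p = 0.0775).

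Of 9 electron carriers and subunits outside the rule, 3 were lower and 1 higher with ETS1 siRNA without replicate 1, and 1 lower and 1 higher with ZNF783 siRNA. CYC1, the cytochrome of complex III, had -0.14 ± 0.0285 (SE, adjusted p = 0.00016) with ETS1 siRNA and -0.13 ± 0.0280 (SE, adjusted p = 0.000446) with ZNF783 siRNA. The correction ended both of these calls, at -0.02 (adjusted p = 0.71) with ETS1 siRNA and 0.02 (adjusted p = 0.74) with ZNF783 siRNA. NDUFAB1, the acyl carrier protein of complex I, had -0.18 ± 0.0346 (SE, adjusted p = 3.85e-05) with ETS1 siRNA, and GPD2, which feeds electrons from glycerol phosphate, had 0.19 ± 0.0362 (SE, adjusted p = 3.76e-05), and 0.13 (adjusted p = 0.00249) after the correction. Of 11 transcription factors and coactivators known for respiratory genes, 3 were lower with ETS1 siRNA without replicate 1, and 4 lower and 2 higher with ZNF783 siRNA. ESRRA, a nuclear receptor known to act on these genes, averaged 101.5 CPM in the ETS1 siRNA libraries without replicate 1 and 124 CPM in their controls, with a log2 fold change of -0.30 ± 0.0334 (SE, adjusted p = 2.99e-10), and -0.18 (adjusted p = 1.34e-06) after the correction. With ZNF783 siRNA it had -0.20 ± 0.0320 (SE, adjusted p = 7.24e-06). GABPA, the DNA-binding subunit of the ETS-family factor GABP, had 0.15 ± 0.0381 (SE, adjusted p = 0.00335) with ZNF783 siRNA. The correction ended both ZNF783 siRNA calls, at -0.05 (adjusted p = 0.242) for ESRRA and 0.06 (adjusted p = 0.273) for GABPA. With ZNF783 siRNA HCFC1 had -0.26 ± 0.0309 (SE, adjusted p = 1.09e-08) and SP1 0.17 ± 0.0279 (SE, adjusted p = 9.79e-06). Both stayed called after the correction, at -0.135 (adjusted p = 0.000115) and 0.138 (adjusted p = 2.66e-05). After it 1 factor was lower and 1 higher with each siRNA. Of 13 genes for the expression of mitochondrial DNA, 2 were lower and 1 higher with ETS1 siRNA without replicate 1, and 3 lower and 2 higher with ZNF783 siRNA. The 13 subunits encoded by mitochondrial DNA had 0 counts in every library and are not analysed here.

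Members were also divided by the ETS core in their promoter. Without ETS1 siRNA replicate 1, 8 of 20 tested members with the core were lower (median -0.17), as were 24 of 45 with a promoter entry and no core (median -0.14). With ZNF783 siRNA 8 of 20 members with the core were lower (median -0.09) and 13 of 43 without it (median -0.03). These shares are given as a description, with no test.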

How the data were processed

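RNA of 22Rv1 cells was sequenced in 12 libraries, in 4 groups of 3 taken from the labels, made with a directional kit per the labels' protocols. What the authors deposited are unnormalized read counts for each gene, made with featureCounts 2.0.1 on paired-end alignments over exons of a GRCh38 release 107 annotation, per the file headers, which show no strand option. The submitters' processing notes name hg38 as the build; no aligner version is given in the sources read. No read assigned to several genes or places was counted under these options, as is the tool's default.

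Each siRNA group was tested against its own controls, and the 2 effects against each other in 1 fit, with edgeR 4.0.16 (R 4.3.3): default expression filter, TMM scaling, robust quasi-likelihood F test with Benjamini-Hochberg adjustment over all genes tested. Calls needed an adjusted p under 0.05. Standard errors come from the F statistic. Alternatives used DESeq2 1.42.0, limma 3.58.1 (voom), other scalings and filters, a replicate block, a spline correction for GC content and length, and fits that leave out each library. The tests were checked on simulated counts of 3 libraries per group, with a common spread and 200 genes changed by 1.5 or 2.0 fold. That setting held no library that stands apart and no change as small as the median change of the members. It therefore says little of the fit without ETS1 siRNA replicate 1. Total counts were 13518177 to 48996691 per library. The floor of 3 counts covers counting error only, because PCR copies are not separate molecules. Replicate pairs differed by more than sampling noise, so none was merged. Of 61860 identifiers 99.8% had a symbol. Biotypes, coordinates and lengths (1-based) come from GENCODE release 29 on GRCh38, since the count tables hold no length. Level per kb uses the union of annotated exons, which understates genes with many minor transcripts.

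Members and lists were chosen with earlier results of these data known. Named are, per comparison and complex, the 3 members of smallest p (for ETS1 siRNA also without its replicate 1), members called against the main direction or with both siRNAs, paralogs, the 5 highest levels per kb, members below the filter and up to 4 genes per other list.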

Additional observations from a re-analysis of the deposited data

Results flagged for a closer look

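NDUFS1, a core iron-sulphur subunit of complex I, differed between the siRNA experiments in a test of the difference itself: the ETS1 siRNA effect minus the ZNF783 siRNA effect was -0.265 on the log2 scale (adjusted p = 0.0486, edgeR, all 12 libraries). All 3 ETS1 siRNA libraries were below all ETS1 controls, and all 3 ZNF783 siRNA libraries were above all ZNF783 controls. The call was lost when any ETS1 control or any ZNF783 library was left out, and also with the GC and length correction, with the replicate block and with library size alone, where its adjusted p was 0.0577, 0.139 and 0.055. After the correction the log2 fold change with ZNF783 siRNA was 0.04 (adjusted p = 0.27), against 0.09 before it. Without ETS1 siRNA replicate 1 the difference was -0.25 ± 0.0389 (SE, adjusted p = 4.69e-06).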

How the results depend on the processing

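The number of members called with ETS1 siRNA rests on 1 library, as does that of all genes, with 4 lower and 5 higher of 19542 tested in all 6 libraries, and 2633 lower and 2016 higher of 20237 without ETS1 siRNA replicate 1. No member was called with all 6 libraries, and none when any ETS1 control or siRNA replicate 2 or 3 was left out. Leaving out siRNA replicate 1 gave 42 lower and 1 higher, so the range over left-out libraries was 0 to 42 lower and 0 to 1 higher. That omission with the GC and length correction gave 43 lower and 0 higher, limma-voom with quality weights, which gave that library a weight of 0.0804, 34 lower and 1 higher, a fit of all 12 libraries 7 lower, and DESeq2 or no filter 1 lower each. The median log2 fold change stayed negative under every alternative run, between -0.391 (without siRNA replicate 3) and -0.121. With ZNF783 siRNA the number called lower was 27, and 1 lower and 1 higher in a fit of all 12 libraries, whose pooled spread includes ETS1 siRNA replicate 1. With single libraries left out it ran from 16 to 28 lower and from 2 to 6 higher. Other alternatives gave 18 to 29 lower and 3 to 5 higher, and the median stayed between -0.083 and -0.048. For the difference between the siRNAs the 1 member called lower became 0 with library size alone, 0 with the replicate block with or without the GC and length correction, 2 with DESeq2, 9 with limma-voom and quality weights, 15 with no filter and 14 without ETS1 siRNA replicate 1 and with the correction. Left-out libraries gave 0 to 14 lower, and no alternative run called a member higher. The cause was not tested. For most of these alternatives the share of all genes called is not given here. Whether the counts of members follow the overall number of calls was therefore not tested. Same-numbered libraries showed no sign of pairing. Correlations of their deviations from the group means were 0.045, -0.072 and 0.103 for ETS1 and -0.029, -0.001 and -0.006 for ZNF783. In the ETS1 siRNA group replicate 1 stands apart and moves that mean, so the check cannot exclude pairing there. The replicate block called 0 members with ETS1 siRNA and 29 lower and 5 higher with ZNF783 siRNA. Depth limits what can be said of the 7 members below the expression filter in both experiments.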

Other observations

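Other mitochondrial gene groups and a second proton pump were read beside the subunits, with values given as log2 fold changes. Over all genes tested 13.0% were called lower and 9.96% higher with ETS1 siRNA without replicate 1, and 13.8% lower and 11.3% higher with ZNF783 siRNA. Of 17 genes of the tricarboxylic acid cycle and pyruvate dehydrogenase, 7 were lower and 1 higher with ETS1 siRNA without replicate 1. With ZNF783 siRNA 4 were lower and 2 higher. After the correction for GC content and length 9 were lower and 0 higher with ETS1 siRNA without replicate 1. With ZNF783 siRNA 8 were then lower and 2 higher. In these 2 corrected fits 11.3% and 10.3% of all genes tested were called lower. IDH3B, a subunit of isocitrate dehydrogenase, had -0.25 ± 0.0323 (SE, adjusted p = 1.72e-08) with ETS1 siRNA and -0.14 ± 0.0339 (SE, adjusted p = 0.00105) with ZNF783 siRNA, there -0.10 (adjusted p = 0.0254) after the correction for GC content and length, and MDH2, the mitochondrial malate dehydrogenase, -0.22 ± 0.0288 (SE, adjusted p = 2.03e-08) and -0.10 ± 0.0270 (SE, adjusted p = 0.00522) (edgeR). OGDH, a subunit of oxoglutarate dehydrogenase, had -0.23 ± 0.0278 (SE, adjusted p = 1.32e-08) with ZNF783 siRNA. Of 22 tested genes for protein import into mitochondria, 7 were lower and none higher with ETS1 siRNA without replicate 1, and 5 lower and 2 higher with ZNF783 siRNA. TOMM70, an import receptor, was lower with ETS1 siRNA, at -0.19 ± 0.0289 (SE, adjusted p = 9.03e-07). With ZNF783 siRNA it was higher, at 0.13 ± 0.0271 (SE, adjusted p = 0.000195), and at 0.08 (adjusted p = 0.0138) after the correction. The fitted difference between the 2 effects is not given here for this gene. TOMM40, the import channel, had -0.17 ± 0.0325 (SE, adjusted p = 3.85e-05) and -0.23 ± 0.0317 (SE, adjusted p = 3.64e-07), and after the correction -0.09 (adjusted p = 0.0111) and -0.13 (adjusted p = 0.000575). Of 18 tested subunits of the V-type proton ATPase, which acidifies lysosomes, 7 were lower and 2 higher with ETS1 siRNA without replicate 1, and 5 lower and 2 higher with ZNF783 siRNA. ATP6V0E2 had -0.21 ± 0.0344 (SE, adjusted p = 2.34e-06) and -0.23 ± 0.0340 (SE, adjusted p = 1.26e-06). With all 6 libraries of the ETS1 experiment none of these genes was called. After the correction 6 import genes were lower and 0 higher with ETS1 siRNA without replicate 1. With ZNF783 siRNA 6 were lower and 2 higher. The V-type subunits were then 9 lower and 2 higher, and 4 lower and 1 higher, in the same order.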
